A study of Mus musculus with 6 samples.

Results

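The 42 genes described here repair DNA or signal its damage. They were taken by gene symbol from the deposited expression table, as a set drawn up for recombination, the Fanconi anemia pathway, end joining, the checkpoint kinases and excision repair linked to p53, and all 42 were found among its 24421 genes. Of these, 40 reached 1 FPKM (fragments mapped to a gene, scaled for its length and for the library) in at least 3 libraries and were tested among 12121 genes, while Rad54b and Brip1 did not reach that level. By role, 12 genes act in strand exchange of homologous recombination, 11 in the Fanconi pathway, 7 in the resection of broken ends or the resolution of joined molecules, 4 are checkpoint kinases, 3 act in end joining, and 5 are excision, bypass or break-sensing genes.

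Hearts of C57/Bl6 mouse embryos at E18.5 gave poly(A) RNA for 6 sequencing libraries. Of these, 3 were labelled Gas2l3 -/- and 3 were labelled wildtype, and both groups share strain, tissue and stage. The protein made from Gas2l3 attaches to microtubules and actin filaments, and by the title of the series its deletion disturbs the cytokinesis of cardiomyocytes. The labels number the samples within a group but do not say that each is a separate embryo, which part of the gene was deleted or whether embryos were pooled, so a p-value speaks of the spread among these samples only.

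Homologous recombination copies the sister chromatid to mend a double-strand break: the broken ends are resected, a strand invades the intact copy with the help of BRCA1, BRCA2 and PALB2, and the joined molecules are later resolved. The Fanconi pathway unhooks crosslinks between the strands, with a core complex that attaches ubiquitin to FANCD2 and FANCI. Many genes of both pathways are transcribed mostly in S and G2 phase, whereas end joining works throughout the cell cycle and several excision repair genes are targets of p53. In a whole organ, fewer cycling cells and less RNA per cell cannot be told apart.

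Recovered whole reads came to between 5514800 and 6483168 in the knockout-labelled libraries. In the wildtype-labelled ones they came to between 3414257 (replicate 1) and 7732674 (replicate 3). Gas2l3 (chromosome 10, 89408823 to 89443967, mm10) stood at 4.03, 2.99 and 3.06 FPKM in the knockout-labelled libraries, against 10.3, 4.12 and 2.48 FPKM in the wildtype-labelled ones (replicates 1, 2 and 3, the order used throughout). The groups overlapped (log2 fold change −0.47, SE 0.44, limma), so the level of the targeted gene does not separate them and all directions refer to libraries as labelled. The heart markers (8 of 8 cardiomyocyte genes tested, none at 0) summed to between 20910 and 22750 FPKM in knockout-labelled and between 22870 and 32630 FPKM in wildtype-labelled libraries. Wildtype-labelled replicate 3 stood apart, with a mean correlation with the other libraries of 0.899 against 0.935 to 0.957 for the rest. Across genes, how far it lay from each gene's mean went with GC content (r = 0.702), a description over genes that share 1 library. The replicate 1 libraries went the other way, with r = −0.481 (knockout-labelled) and −0.474 (wildtype-labelled), and the rest lay between −0.159 and −0.071. The same correlation with transcript length ran from −0.413 (knockout-labelled replicate 2) to 0.351 (wildtype-labelled replicate 1).

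The repair genes differed between the groups by less than the replicate spread could resolve. None of the 40 tested members was called by limma at a Benjamini-Hochberg adjusted p under 0.05, where 0.0% of all 12121 genes were called, and the lowest adjusted p of a member was 0.966. None had an unadjusted p under 0.05 either, against 394 or 3.25% of all genes. Voom on the recovered reads likewise left 0 members at either limit. On the log2(FPKM + 0.5) scale the members' median fold change, knockout-labelled minus wildtype-labelled, was −0.13, against −0.01 over all tested genes, and single values ran from −0.65 for Mus81 to 0.51 for Xrcc5. Of the 40 members, 26 were lower and 14 higher in knockout-labelled libraries (65.0% lower, against 51.0% of all genes). The moderated SE of a member lay between 0.23 and 0.44, with a median of 0.32, which is larger than most of these fold changes.

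That lean toward lower values changed with single libraries. Without wildtype-labelled replicate 1 the members' median was 0.07 and 13 of 40 were lower, and without wildtype-labelled replicate 3 it was −0.22 and 32 of 40 were lower. When every library was scaled to the same total, the members' median was 0.01 and 20 of 40 were lower. That scaling raised all genes too, to a median of 0.15 with 3995 of 12121 lower. Relative to all genes the members' median was then −0.14, so the lean relative to all genes remained. With library weights in the fit the members' median was −0.12 and 29 of 40 were lower. With each library's trends on GC content and transcript length removed it was −0.19 and 28 of 40 were lower. Leaving out wildtype-labelled replicate 1 was not tried on those trend-removed values.

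Groups without overlap were found for 4 of the 40 tested members. Bard1 and Parp1 lay lower in each knockout-labelled library than in any wildtype-labelled one, 2 genes where 4.74% of all tested genes did so. Xrcc5 and Xpc lay higher, 2 genes where 5.02% did so. Both counts are near those shares.

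**Figure D1:**
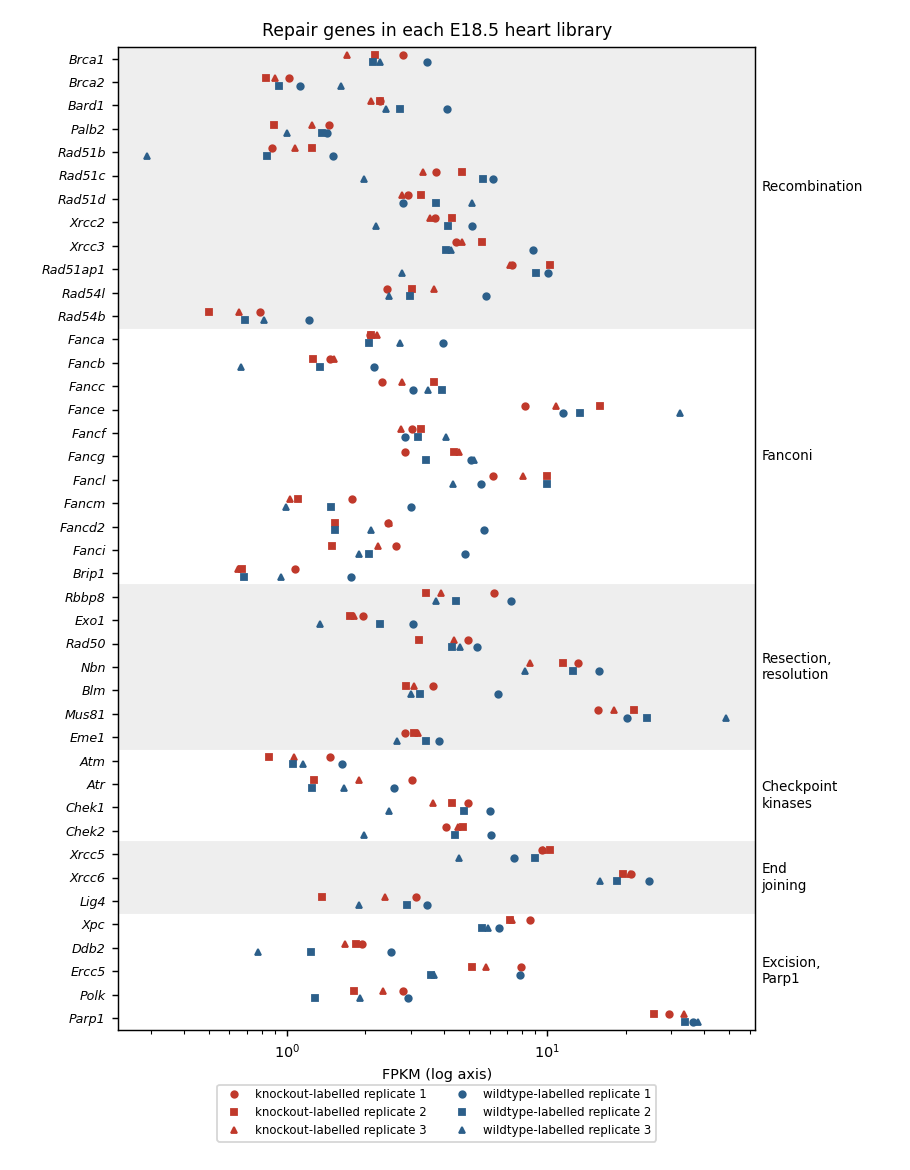
FPKM of each repair gene in the 6 libraries on a logarithmic axis, with knockout-labelled libraries in red above wildtype-labelled libraries in blue in each row, and marker shape for the replicate number. Values run from 0.29 to 48.8 FPKM, and the colours separate fully for Bard1, Parp1, Xrcc5 and Xpc alone.

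Promoter sequence was set beside these values because recombination and Fanconi genes, like the cycling genes described further on, are known as genes of the S and G2 phases. RefSeq windows on GRCm38.p6, from 250 bases before to 50 bases after the start of transcription, were at hand for 32 of the 42 members, in 37 windows. The E2F site was searched in 2 exact forms only (TTTGGCGC or TTTCGCGC on either strand), so other forms of it were not counted. A match lay in 1 of these 37 windows (2.7%), against 0.8% of all 32851 windows and 6 of 25 windows of cycling genes (24.0%). The CHR element (TTTGAA, either strand), through which the DREAM complex represses cell cycle genes, was found in 4 member windows (10.8%), against 17.9% of all and 44.0% of the cycling windows. The CCAAT box (CCAAT, either strand), bound by NF-Y, was found in 21 member windows (56.8%), against 37.4% of all and 84.0% of the cycling windows. A match is a description of these letters and not a site, and some E2F and CCAAT matches overlap. Shown here, from 250 bases before to 30 bases after the annotated start, 5′ to 3′ on the gene's strand with matches in capitals, are the members without overlap between groups that have a window (Bard1, Xrcc5 and Parp1). The only member matching these 2 E2F forms, Rad51c, and a cycling gene with a match, Mcm7, were chosen after their values were seen. In each of them the match lies in 1 of its 2 windows, and that window is shown. The coordinates are chr1:71102943-71103222 (minus strand) for Bard1, chr1:72307171-72307450 (plus) for Xrcc5, chr1:180568641-180568920 (plus) for Parp1, chr11:87404477-87404756 (minus) for Rad51c and chr5:138171854-138172133 (minus) for Mcm7.
Bard1: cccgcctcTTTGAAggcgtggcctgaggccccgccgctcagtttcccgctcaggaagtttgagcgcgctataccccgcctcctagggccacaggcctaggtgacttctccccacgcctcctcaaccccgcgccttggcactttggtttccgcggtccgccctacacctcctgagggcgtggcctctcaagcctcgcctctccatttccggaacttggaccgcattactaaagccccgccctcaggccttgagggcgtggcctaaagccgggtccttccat
Xrcc5: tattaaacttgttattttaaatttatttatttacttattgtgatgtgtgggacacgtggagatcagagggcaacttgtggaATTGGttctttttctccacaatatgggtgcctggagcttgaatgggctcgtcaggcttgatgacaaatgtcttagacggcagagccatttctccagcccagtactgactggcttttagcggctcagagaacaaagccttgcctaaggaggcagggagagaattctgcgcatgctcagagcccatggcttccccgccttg
Parp1: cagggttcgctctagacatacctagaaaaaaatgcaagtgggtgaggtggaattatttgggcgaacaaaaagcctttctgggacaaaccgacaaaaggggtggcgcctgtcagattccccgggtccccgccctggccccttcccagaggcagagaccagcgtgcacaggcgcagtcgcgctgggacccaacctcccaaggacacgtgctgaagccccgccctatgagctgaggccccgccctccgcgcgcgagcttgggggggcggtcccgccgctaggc
Rad51c: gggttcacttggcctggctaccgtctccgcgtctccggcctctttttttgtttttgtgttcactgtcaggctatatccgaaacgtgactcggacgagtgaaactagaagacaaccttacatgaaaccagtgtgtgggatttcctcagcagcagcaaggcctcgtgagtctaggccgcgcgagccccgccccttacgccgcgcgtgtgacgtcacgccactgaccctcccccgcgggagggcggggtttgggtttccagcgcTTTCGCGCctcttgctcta
Mcm7: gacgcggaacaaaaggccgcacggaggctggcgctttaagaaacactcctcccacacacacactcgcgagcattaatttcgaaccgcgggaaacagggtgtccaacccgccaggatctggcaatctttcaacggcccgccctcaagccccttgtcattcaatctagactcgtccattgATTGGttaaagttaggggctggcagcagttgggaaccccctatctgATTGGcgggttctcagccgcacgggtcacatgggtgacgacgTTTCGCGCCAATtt
Bard1 holds 1 CHR match near the upstream end of the stretch, Xrcc5 holds 1 CCAAT box on the opposite strand, and Parp1 holds none of the 3 motifs. The E2F match of Rad51c lies just after the start, and in Mcm7 the E2F match runs into the last of 3 CCAAT boxes.

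The strand exchange genes of recombination had a median log2 fold change of −0.12, with 8 of 11 tested members lower in knockout-labelled libraries. As single libraries were left out, that median was 0.13 without wildtype-labelled replicate 1, −0.30 without replicate 2 and −0.24, with all 11 lower, without replicate 3 of that group, and −0.07 to −0.20 without a knockout-labelled library. It was −0.25 with each library's trends on GC content and transcript length removed, −0.22 with quantile normalization and 0.03 with equal totals, which relative to all genes was −0.12. Bard1 (chromosome 1, 71027498 to 71103146, mm10), the partner of BRCA1 in a ubiquitin ligase, had 2.27, 2.28 and 2.10 FPKM in knockout-labelled libraries, against 4.11, 2.72 and 2.41 FPKM in wildtype-labelled ones. The 3 knockout-labelled values lie close together and below all wildtype-labelled values, though only narrowly below replicate 3. Bard1 averaged 2.22 ± 0.103 FPKM in knockout-labelled and 3.08 ± 0.903 FPKM in wildtype-labelled libraries (SD, n = 3 each), a log2 fold change of −0.37 (SE 0.27), which was −0.17 without wildtype-labelled replicate 1. Between 67 and 113 reads lay behind each value. Its promoter stretch with the CHR match is the first of those printed above.

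Brca2 (chromosome 5, 150522630 to 150570329), which mediates strand exchange at resected ends, had 1.013, 0.833 and 0.896 FPKM in knockout-labelled libraries, against 1.13, 0.932 and 1.61 FPKM in wildtype-labelled ones. It was lower in each pair of equal replicate number, but the groups overlapped (log2 fold change −0.27, SE 0.29, and −0.11 without wildtype-labelled replicate 3). Rad51d (chromosome 11, 82876434 to 82890614), a strand exchange gene, had 2.91, 3.27 and 2.77 FPKM in knockout-labelled libraries, against 2.80, 3.75 and 5.12 FPKM in wildtype-labelled ones. Here wildtype-labelled replicate 3 was the high library (−0.30, SE 0.28, and −0.11 without that library). Rad51ap1 (chromosome 6, 126923050 to 126939587), which stimulates strand pairing, had 7.35, 10.2 and 7.19 FPKM in knockout-labelled libraries, against 10.04, 9.04 and 2.78 FPKM in wildtype-labelled ones. The positive fold change of 0.33 (SE 0.44) rested on the low value of wildtype-labelled replicate 3 and was −0.21 without that library.

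The other 8 genes of this role were Brca1, the ubiquitin ligase itself, Palb2, which joins BRCA1 to BRCA2, the strand exchange genes Rad51b, Rad51c, Xrcc2 and Xrcc3, and the translocases Rad54l and Rad54b. Their values ran from 0.29 FPKM, for Rad51b in wildtype-labelled replicate 3, to 8.81 FPKM, for Xrcc3 in wildtype-labelled replicate 1. The 7 tested ones had log2 fold changes between −0.20 (Rad54l) and 0.28 (Rad51b), and the groups overlapped in all 8. Rad51c, with the E2F match at 1 of its 2 annotated starts, had 3.73, 4.70 and 3.32 FPKM in knockout-labelled libraries, against 6.19, 5.67 and 1.98 FPKM in wildtype-labelled ones. All 3 knockout-labelled values thus lay between the lowest and the other wildtype-labelled values, and the fold change of −0.10 (SE 0.40) was −0.55 without wildtype-labelled replicate 3. Rad54b, below the level for testing, had 0.789, 0.5 and 0.656 FPKM in knockout-labelled libraries, against 1.21, 0.689 and 0.814 FPKM in wildtype-labelled ones.

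The Fanconi genes had a median of −0.27 over 10 tested members, of which 8 were lower in knockout-labelled libraries, and −0.17 with trends removed. Without wildtype-labelled replicate 1 that median was −0.04, with 5 of 10 lower. Fance (chromosome 17, 28313519 to 28326572), a core complex subunit that binds FANCD2, had 8.22, 16.0 and 10.8 FPKM in knockout-labelled libraries, against 11.5, 13.3 and 32.3 FPKM in wildtype-labelled ones. One library, wildtype-labelled replicate 3, stood far above the rest, and the fold change of −0.58 (SE 0.42) was −0.14 without it. Fanca (chromosome 8, 123268300 to 123318576), a core complex subunit, had 2.09, 2.10 and 2.21 FPKM in knockout-labelled libraries, against 3.96, 2.07 and 2.73 FPKM in wildtype-labelled ones. The wildtype-labelled values reached from just below to well above the knockout-labelled ones (−0.34, SE 0.28). It was −0.13 without wildtype-labelled replicate 1 and −0.53 without wildtype-labelled replicate 2.

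Fancl (chromosome 11, 26386135 to 26471876), the ubiquitin ligase of the core complex, had 6.19, 9.94 and 8.08 FPKM in knockout-labelled libraries, against 5.56, 10.01 and 4.35 FPKM in wildtype-labelled ones, and the groups overlapped (0.32, SE 0.34). As each library was left out, its fold change ran from 0.08, without wildtype-labelled replicate 3, to 0.64, without wildtype-labelled replicate 2. Fancc (chromosome 13, 63285043 to 63497278), another core subunit, had 2.31, 3.68 and 2.77 FPKM in knockout-labelled libraries, against 3.04, 3.95 and 3.48 FPKM in wildtype-labelled ones. Each Fancc pair of equal replicate number was lower in the knockout-labelled library (−0.24, SE 0.26), with −0.11 to −0.39 as single libraries were left out. Of the other 7, Fancb, Fancf and Fancg belong to the core complex, Fancm is its anchoring translocase, Fancd2 and Fanci are the pair that receives ubiquitin, and Brip1 is a helicase that binds BRCA1. They ran from 0.647 FPKM (Brip1) to 5.72 FPKM (Fancd2 in wildtype-labelled replicate 1), and the 6 tested ones had log2 fold changes between −0.31 (Fanci) and 0.10 (Fancb). In Fancb, Fancd2, Fanci, Fancm and Brip1 the highest library was wildtype-labelled replicate 1.

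All 7 genes of end resection and resolution had negative fold changes, with a median of −0.16, while 6 of 7 were negative with trends removed and 5 of 7 with equal totals. Without wildtype-labelled replicate 1 only 2 of the 7 were negative. Mus81 (chromosome 19, 5482345 to 5488402), the nuclease that cuts branched molecules together with EME1, had 15.7, 21.6 and 18.02 FPKM in knockout-labelled libraries, against 20.3, 24.2 and 48.8 FPKM in wildtype-labelled ones. It averaged 18.4 ± 2.99 FPKM in knockout-labelled and 31.1 ± 15.5 FPKM in wildtype-labelled libraries (SD, n = 3 each), with a log2 fold change of −0.65 (SE 0.36, unadjusted p = 0.105, limma). Most of that difference lay in wildtype-labelled replicate 3: the fold change was −0.27 without that library and −0.89 without wildtype-labelled replicate 1. Its partner Eme1 had a log2 fold change of −0.09 (SE 0.25).

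Blm (chromosome 7, 80454733 to 80535119), the Bloom helicase that dissolves joined molecules, had 3.63, 2.86 and 3.08 FPKM in knockout-labelled libraries, against 6.48, 3.25 and 2.99 FPKM in wildtype-labelled ones. Wildtype-labelled replicate 1 was the high library, and the fold change of −0.29 (SE 0.32) was 0.02 without it. Rad50 (chromosome 11, 53649519 to 53707319), which tethers broken ends with MRE11 and NBN, had 4.96, 3.21 and 4.39 FPKM in knockout-labelled libraries, against 5.39, 4.29 and 4.62 FPKM in wildtype-labelled ones (−0.18, SE 0.25, and −0.02 without knockout-labelled replicate 2). It was lower in all 3 pairs of equal replicate number. Exo1 (chromosome 1, 175880581 to 175913489), a resecting nuclease, had 1.97, 1.75 and 1.81 FPKM in knockout-labelled libraries, against 3.05, 2.27 and 1.34 FPKM in wildtype-labelled ones (−0.16, SE 0.31, and 0.05 without wildtype-labelled replicate 1). The knockout-labelled values sat together inside the wildtype-labelled spread. The resection factor Rbbp8, the MRN subunit Nbn and Eme1 ran from 2.65 FPKM (Eme1) to 15.8 FPKM (Nbn), with fold changes between −0.16 and −0.09 and overlapping groups.

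The checkpoint kinases had a median log2 fold change of 0.07, and 3 of 4 were higher in knockout-labelled libraries; the median was −0.11 with trends removed, −0.005 with quantile normalization and −0.19 without wildtype-labelled replicate 3. Atm (chromosome 9, 53439149 to 53536740), the kinase that answers double-strand breaks, had 1.46, 0.855 and 1.07 FPKM in knockout-labelled libraries, against 1.63, 1.06 and 1.15 FPKM in wildtype-labelled ones (−0.13, SE 0.30). Atr (chromosome 9, 95857597 to 95951781), the kinase that answers single-stranded DNA at stalled forks, had 3.02, 1.27 and 1.89 FPKM in knockout-labelled libraries, against 2.58, 1.24 and 1.65 FPKM in wildtype-labelled ones (0.12, SE 0.35). In both kinases replicate 1 was the high library and replicate 2 the low one of each group. Their pairs differed slightly and in opposite directions, Atm lower in all 3 and Atr higher in all 3.

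Chek1 (chromosome 9, 36708482 to 36727065), the effector of ATR, had 4.97, 4.32 and 3.62 FPKM in knockout-labelled libraries, against 6.05, 4.80 and 2.47 FPKM in wildtype-labelled ones (0.03, SE 0.33). Chek2 (chromosome 5, 110839979 to 110874145), the effector of ATM, had 4.08, 4.73 and 4.52 FPKM in knockout-labelled libraries, against 6.07, 4.40 and 1.98 FPKM in wildtype-labelled ones (0.20, SE 0.36). In both effectors the knockout-labelled values lay inside the wildtype-labelled range. Without wildtype-labelled replicate 3 both fold changes were negative, at −0.30 for Chek1 and −0.20 for Chek2.

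The end joining genes had a median of 0.07, with 2 of 3 higher in knockout-labelled libraries; without wildtype-labelled replicate 3 the median was −0.07. Xrcc5 (chromosome 1, 72307421 to 72394952) encodes KU80, which caps broken ends together with KU70. It had 9.55, 10.2 and 9.67 FPKM in knockout-labelled libraries, against 7.44, 8.94 and 4.58 FPKM in wildtype-labelled ones. All 3 knockout-labelled values lay above all wildtype-labelled values. Xrcc5 averaged 9.81 ± 0.356 FPKM in knockout-labelled and 6.99 ± 2.22 FPKM in wildtype-labelled libraries (SD, n = 3 each), a log2 fold change of 0.51 (SE 0.28, unadjusted p = 0.107, limma). It was 0.25 without wildtype-labelled replicate 3.

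Xrcc6 (chromosome 15, 81987835 to 82040085), which encodes KU70, had 20.9, 19.5 and 20.9 FPKM in knockout-labelled libraries, against 24.7, 18.6 and 16.0 FPKM in wildtype-labelled ones. Unlike those of its partner, its groups overlapped (0.07, SE 0.26, and −0.07 without wildtype-labelled replicate 3), and the difference between the partners was not tested. Lig4 (chromosome 8, 9969049 to 9977686), the ligase that seals the joined ends, had 3.14, 1.36 and 2.37 FPKM in knockout-labelled libraries, against 3.45, 2.89 and 1.88 FPKM in wildtype-labelled ones (−0.24, SE 0.34). Knockout-labelled replicate 2 was its low library, and the fold change was 0.03 without it.

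Among the 5 excision, bypass and break-sensing genes the median log2 fold change was 0.30, and 4 of 5 were higher in knockout-labelled libraries. That median was 0.14 with trends removed and 0.18 without wildtype-labelled replicate 2, with 3 of 5 higher in both, 0.175 without wildtype-labelled replicate 3 and 0.19 without knockout-labelled replicate 1 or with quantile normalization. Xpc (chromosome 6, 91489305 to 91515888), which finds distorted DNA for nucleotide excision repair and is a p53 target, had 8.61, 7.16 and 7.30 FPKM in knockout-labelled libraries, against 6.54, 5.62 and 5.92 FPKM in wildtype-labelled ones. The groups did not overlap. Xpc averaged 7.69 ± 0.8 FPKM in knockout-labelled and 6.03 ± 0.47 FPKM in wildtype-labelled libraries (SD, n = 3 each), a log2 fold change of 0.33 (SE 0.23). Ddb2 (chromosome 2, 91211572 to 91236982), the damage sensor that hands lesions to XPC, had 1.94, 1.85 and 1.67 FPKM in knockout-labelled libraries, against 2.51, 1.24 and 0.773 FPKM in wildtype-labelled ones (0.30, SE 0.35). Only 9 to 24 reads per library lay behind Ddb2, and its fold change was 0.02 without wildtype-labelled replicate 3 and 0.64 without wildtype-labelled replicate 1.

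Ercc5 (chromosome 1, 44147744 to 44181260), the nuclease that cuts on the 3′ side of a lesion, had 7.95, 5.14 and 5.81 FPKM in knockout-labelled libraries, against 7.85, 3.58 and 3.68 FPKM in wildtype-labelled ones (0.36, SE 0.34). It was higher in all 3 pairs of equal replicate number, by little in replicate 1, and its fold change was 0.18 without wildtype-labelled replicate 2 and 0.70 without wildtype-labelled replicate 1. Polk, a polymerase that copies past lesions, ran from 1.28 to 2.90 FPKM with overlapping groups (0.19, SE 0.32). Parp1 (chromosome 1, 180568924 to 180601254), which senses strand breaks and builds poly(ADP-ribose), had 29.5, 25.6 and 33.6 FPKM in knockout-labelled libraries, against 36.3, 33.9 and 38.0 FPKM in wildtype-labelled ones. It was the member with the most reads, 519 to 984 per library, and its groups were separate by a narrow margin. Parp1 averaged 29.6 ± 3.96 FPKM in knockout-labelled and 36.1 ± 2.08 FPKM in wildtype-labelled libraries (SD, n = 3 each), a log2 fold change of −0.29 (SE 0.25), or −0.19 without knockout-labelled replicate 2.

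**Figure D2:**
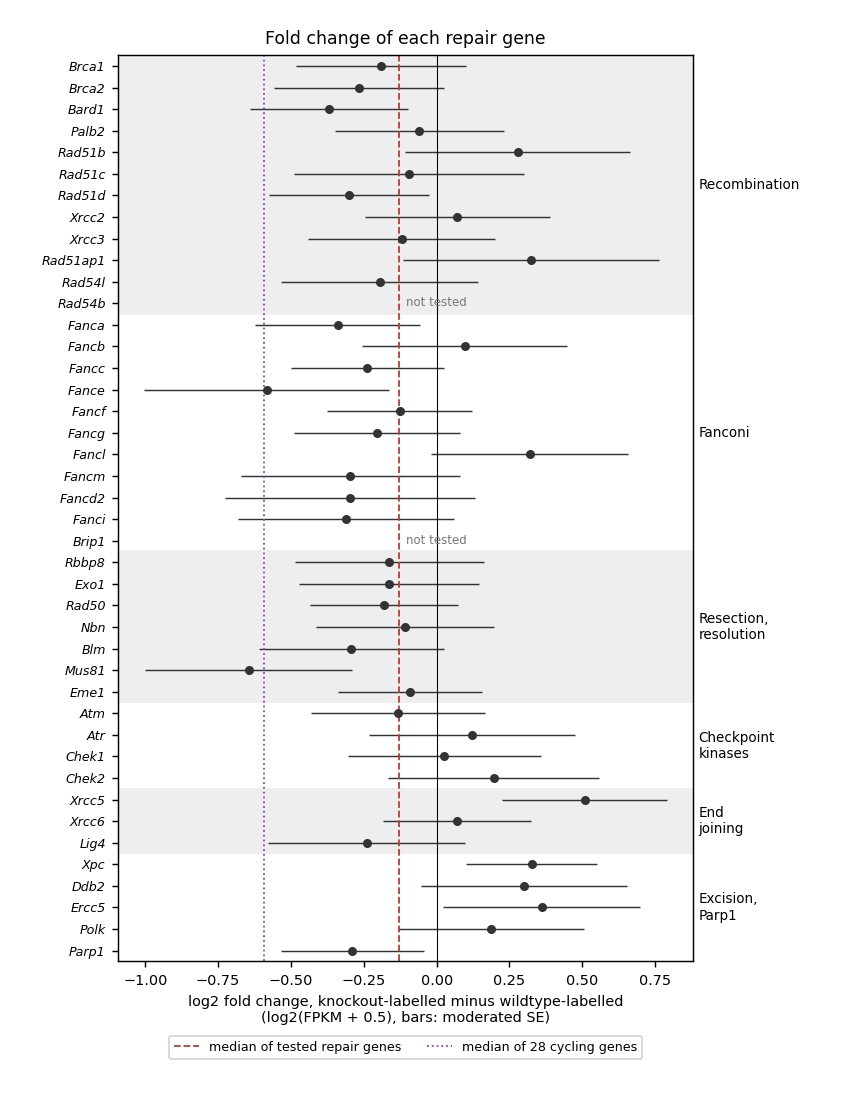
Log2 fold change of each tested repair gene, knockout-labelled minus wildtype-labelled on log2(FPKM + 0.5), with bars for the moderated SE, and vertical lines for the medians of the 40 tested members (−0.13) and of 28 cycling genes (−0.59). Points run from −0.65 (Mus81) to 0.51 (Xrcc5), and recombination, Fanconi and resolution genes sit mostly left of 0 while excision genes sit mostly right of it.

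The extreme values of the repair genes fell unevenly over the libraries. Wildtype-labelled replicate 1 was the highest of the 6 libraries for 27 of the 42 members, where it was highest for 21.8% of all tested genes, and it was lowest for none. That library also had the fewest recovered reads (3414257), and what part depth has in this was not tested. Wildtype-labelled replicate 3 was the lowest library for 15 members and the highest for 7, against 33.9% and 37.5% of all tested genes. Medians of the members' deviation from the gene mean were 0.02, −0.07 and −0.05 in the knockout-labelled libraries, against 0.44, −0.03 and −0.23 in the wildtype-labelled ones. The knockout-labelled medians thus lay between the extremes of the wildtype-labelled ones.

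The pattern in wildtype-labelled replicate 3 went with base composition. In the 15 members with under 45% GC in their longest transcript, that library's difference from the mean of the other 5 had a median of −0.34 on the log2 scale. In the 15 members between 45 and 50% GC the median was −0.52, and in the 12 with 50% or more it was 0.21. Mus81 (55.3% GC) and Fance (61.4%) were the highest in that library relative to the others, and Rad51ap1 (45.7%) was the lowest. Wildtype-labelled replicate 1 had medians of 0.55, 0.61 and 0.06 in the same 3 classes, and was the highest library for 12, 11 and 4 of their members. How far composition accounts for any member's difference was not tested beyond the trend removal given next.

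**Figure D3:**
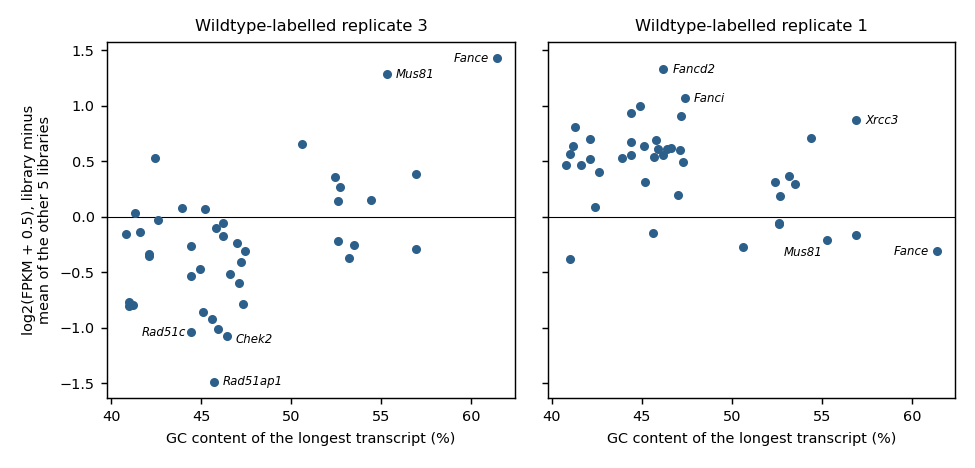
Each point is 1 of the 42 repair genes, with the GC content of its longest transcript (%) on the horizontal axis and log2(FPKM + 0.5) in the named library minus the mean of the other 5 libraries on the vertical axis. In wildtype-labelled replicate 3 the points range from −1.49 (Rad51ap1) to 1.43 (Fance), and in wildtype-labelled replicate 1 the members of low GC content sit mostly above 0.

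With trends on GC content and transcript length removed from each library, more members had separate groups, and so did more of all genes. Over all genes that share went from 4.74% to 7.82% in the lower direction and from 5.02% to 7.25% in the higher one. The members' median log2 fold change was then −0.19, with 28 of 40 lower. Bard1 (−0.50, SE 0.19, unadjusted p = 0.0304, limma), Blm (−0.47, SE 0.19, unadjusted p = 0.039, limma) and Mus81 (−0.45, SE 0.17, unadjusted p = 0.0303, limma) had an unadjusted p under 0.05. These are 3 of 40 members, where 7.69% of all genes passed the same limit, and 0 members had an adjusted p under 0.05 (lowest 0.592). Groups were separate and lower in knockout-labelled libraries for 7 of 40 members, namely Bard1, Blm, Mus81, Fancm, Rad50, Nbn and Lig4, where 7.82% of all genes were. Xrcc5 and Xpc stayed separate and higher, 2 members where 7.25% of all genes were, while the groups of Parp1 overlapped.

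Libraries of the same replicate number deviated together, though weakly in replicate 3, so the replicate number was also used as a block. In the data as deposited the block left 0 members called and 0 at an unadjusted p under 0.05. With trends removed and the block, 4 members had an unadjusted p under 0.05 (Bard1, Blm, Mus81 and Xpc), where 11% of all genes did, and the lowest adjusted p of a member was 0.434. Within the pairs as deposited, 32 of 40 members were lower in the knockout-labelled library of replicate 1, 21 in replicate 2 and 13 in replicate 3. Their median differences were −0.32, −0.04 and 0.19. Of the 40 members, 7 (Bard1, Brca2, Fancc, Rad50, Mus81, Atm and Parp1) were lower in all 3 pairs, against 13.8% of all tested genes, and 4 (Xrcc5, Xpc, Ercc5 and Atr) were higher in all 3, against 16.6%.

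The authors' deposited table of their own comparison also called none of these genes. It held an adjusted p for all 42 members, of which 0 were under 0.05, while 9 of its 12243 genes (0.0735%) were. In the authors' deposited table the log2 fold change was negative for 29 members and positive for 13, between −0.54 for Mus81 and 0.37 for Xrcc5, and the lowest adjusted p was 0.998.

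Other genes of the same pathways were read from 6 further lists with 100 tested genes, chosen by function. Their median log2 fold change was −0.13, like that of the 42-gene set, with 70 of 100 lower; without wildtype-labelled replicate 1 it was −0.07, with 55 lower, and with equal totals 0.03, or −0.12 relative to all genes. None was called. An unadjusted p under 0.05 (limma) was found for 4 with lower and 1 with higher values in knockout-labelled libraries. Over all tested genes 3.25% passed that limit, both directions together. The groups were separate and lower for 14 of the 100, against 4.74% of all tested genes, and separate and higher for 1, against 5.02%.

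By list, medians were −0.14 over 24 recombination genes, −0.46 over 14 Fanconi genes, −0.10 over 21 checkpoint genes, −0.11 over 9 end joining genes, −0.12 over 25 excision genes and −0.07 over 7 mismatch repair genes. The Fanconi value ran from −0.57, when wildtype-labelled replicate 1 was dropped, to −0.23, when replicate 3 of that group was. Dropping wildtype-labelled replicate 1 took recombination genes to −0.01 and mismatch repair genes to 0.21. Checkpoint, end joining and excision genes then stood at −0.10, −0.05 and −0.14. With equal totals the Fanconi value was −0.295, and the others lay between 0.015 and 0.07. Relative to all genes, these medians were −0.45 to −0.09. Rmi2, a partner of BLM in dissolving joined molecules, had 1.77, 2.13 and 1.74 FPKM in knockout-labelled libraries, against 2.77, 4.28 and 5.21 FPKM in wildtype-labelled ones (−0.91, SE 0.29). Nhej1, the end joining factor XLF, had 3.30, 3.74 and 2.92 FPKM in knockout-labelled libraries, against 5.69, 6.23 and 6.22 FPKM in wildtype-labelled ones (−0.78, SE 0.23). Only 17 to 40 reads per library lay behind Nhej1. Ung, the glycosylase that removes uracil from DNA, had 10.3, 11.7 and 12.5 FPKM in knockout-labelled libraries, against 15.1, 23.8 and 32.7 FPKM in wildtype-labelled ones (−0.96, SE 0.31). In these 3 genes every knockout-labelled value lay below every wildtype-labelled one, with an adjusted p of 0.966 (limma). Xpa, a scaffold of nucleotide excision repair, stood on the other side, with 10.7, 15.6 and 8.82 FPKM in knockout-labelled libraries, against 8.12, 7.73 and 3.27 FPKM in wildtype-labelled ones (0.88, SE 0.38, adjusted p = 0.966, limma). Leaving out wildtype-labelled replicate 3 gave 0.50 for Xpa.

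Among the damage signalling genes of these lists, Mdc1, the scaffold that reads phosphorylated H2AX, had 7.10, 6.03 and 6.59 FPKM in knockout-labelled libraries, against 12.6, 7.74 and 11.9 FPKM in wildtype-labelled ones (−0.64, SE 0.26). H2afx, the histone variant itself, had 53.2, 51.0 and 46.9 FPKM in knockout-labelled libraries, against 54.4, 80.3 and 214 FPKM in wildtype-labelled ones. The H2afx fold change of −0.95 (SE 0.47) was −0.39 without wildtype-labelled replicate 3. The groups were separate in both genes, and neither was called.

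Genes of cycling cells gave a different pattern over the libraries from that of the repair set. Their 28 genes had a median log2 fold change of −0.59, and 26 of 28 were lower, against 51.0% of all tested genes. Separate groups in that direction were found for 17, against 4.74% of all tested genes, though none was called. Library medians were −0.29, −0.30 and −0.29 in knockout-labelled libraries, against 0.27, 0.23 and 0.32 in wildtype-labelled ones, so here all 3 wildtype-labelled libraries stood above all 3 knockout-labelled ones. Their summed level was between 723 and 859 FPKM in knockout-labelled libraries, against 1131 to 1233 FPKM in wildtype-labelled ones, with no gene at 0. Mcm7, the replication helicase subunit with a promoter window printed above, had 27.97, 25.3 and 26.0 FPKM in knockout-labelled libraries, against 49.1, 41.3 and 52.0 FPKM in wildtype-labelled ones. What part cycling cells have in the repair genes' values was not tested.

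The 21 p53 targets, of which Xpc and Polk are also members, had a median of 0.64, with 19 higher. Of these, 12 had separate groups, where 5.02% of all tested genes were separate and higher. Gtse1 alone was separate and lower (−0.715), where 4.74% of all tested genes were, and none of the 21 was called. Their library medians were 0.34, 0.42 and 0.20 in knockout-labelled libraries, against −0.57, −0.25 and −0.31 in wildtype-labelled ones. Their summed level was between 647.5 and 859 FPKM in knockout-labelled libraries, against 405 to 704 FPKM in wildtype-labelled ones, with no gene at 0. Neither list was chosen without knowledge of these libraries, and neither difference was tested against the repair set.

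**Figure D4:**
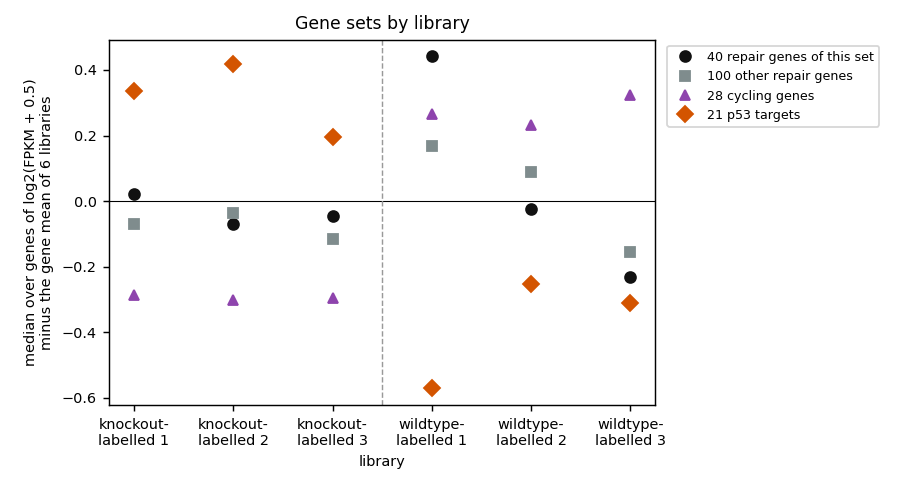
For each of the 6 libraries, knockout-labelled at left and wildtype-labelled at right, the points give the median over genes of log2(FPKM + 0.5) minus the gene's mean, for 40 repair genes, 100 other repair genes, 28 cycling genes and 21 p53 targets. The repair genes run from −0.23 to 0.44 within the wildtype-labelled libraries, while cycling genes and p53 targets separate the groups in opposite directions.

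Markers of other cell types did not give a single direction. Median log2 fold changes were −0.45 over 8 cardiomyocyte genes (−0.17 without wildtype-labelled replicate 3), 0.27 over 7 fibroblast genes (−0.04 without wildtype-labelled replicate 2), 0.01 over 7 endothelial genes (0.39 without wildtype-labelled replicate 3), 0.12 over 9 macrophage genes (0.40 without that library) and 0.07 over 6 smooth muscle genes (0.30 without it). Erythroid genes had 3 tested members (median 0.42), with Hba-a1, Hba-a2, Hbb-bs and Hbb-bt listed at 0, and genes of other organs had 2 tested members (median 0.67). Without knockout-labelled replicate 1 these medians were −0.16 and −0.002. Their part in the repair genes' values was not tested.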

How the data were processed

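Poly(A) RNA libraries were made with 13 PCR cycles per the labels' protocols. FastQC, DESeq2 and the build mm10 stand in the submitters' processing notes. Aligner, read counter, annotation and strand setting were not given in the sources used here, so reads of overlapping genes may be shared. Each library has FPKM values deposited by the authors, scaled between libraries by size factors, and a second deposited table holds the authors' own comparison. From the values, whole reads were recovered for 94235 of 94235 values above 0 (tolerance 0.01), 3414257 to 7732674 per library. Read numbers cover counting error only.

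The test was limma 3.58.1 in R 4.3.3, two-sided, with variances moderated along an intensity trend, on log2(FPKM + 0.5), which understates changes of low genes. It was fitted on all 12121 genes with 1 FPKM or more in at least 3 libraries, with Benjamini-Hochberg adjustment over all of them. The members and lists were chosen with earlier results of these data known. Named members were those without overlap between groups and up to 4 per role with the smallest p. From the other lists, some of the 3 genes with the smallest p were named. Libraries of the same number correlated in their deviations from group means (r = 0.472, 0.443 and 0.186), so the numbers were taken as pairs, from the data and not the labels. With trends removed these correlations were 0.303, 0.403 and 0.097. GC content and coordinates came from GENCODE M21 on GRCm38, and GC was found for 11709 genes (96.6%). Trends were removed by loess (span 0.3). The model fit was tested on simulated data.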

Additional observations from a re-analysis of the deposited data

How the results depend on the processing

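Genes called numbered 2 of 11709 with GC content and length trends removed and 2 of 12121 with library weights, neither a member, and 0 under the other settings run. With the replicate block 0 genes were called and 729 had an unadjusted p under 0.05, against 394 without it; the paired fit changed no call of a member. Members lower in knockout-labelled libraries numbered 5 of 11 with a mean of 5 FPKM or more, and between 13 and 32 of 40 as each library was left out, the lowest without wildtype-labelled replicate 1. Of the fold changes of Gas2l3 and the named members under the alternatives, 396 kept their sign and their side of the threshold and 21 turned sign. None of these genes was called under any setting, so the threshold sets none of them apart. Some alternatives, such as the replicate block and the fit without an intensity trend, leave a fold change unchanged, which adds to the 396. With trends removed, with or without the block, Atr was −0.028 and Chek1 −0.19. With library weights Chek1 was −0.25, Chek2 −0.001, Fancl −0.10 and Rad51ap1 −0.17, and with quantile normalization Chek1 was −0.045. Leaving out each library gave −0.28 to 0.004 for Atm, −0.14 to 0.36 for Atr, −0.48 to 0.023 for Blm, −0.30 to 0.27 for Chek1, −0.20 to 0.50 for Chek2, −0.42 to 0.053 for Exo1, −0.89 to 0.047 for Gas2l3, −0.46 to 0.026 for Lig4, −0.21 to 0.63 for Rad51ap1 and −0.068 to 0.24 for Xrcc6. The cause was not tested. Depth limits the low genes most: 31 of 42 members averaged under 5 FPKM, and tested members had 5 to 984 reads per library.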
